A study of Pinus pinaster with 8 samples.

Results

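Microtubules are hollow filaments built from heterodimers of α-tubulin and β-tubulin, and microtubule-associated proteins (MAP) bind along them and alter their stability, bundling or links to other structures. In cells that are laying down a wall, cortical microtubules lie under the plasma membrane and guide the paths along which cellulose synthase complexes deposit cellulose microfibrils. Compression wood, which conifers form on the lower side of a leaning stem, is known for secondary walls with a large microfibril angle and much lignin. The 9 cDNA clones described here are the 8 clones of cDNA microarray 1 that the study's annotation describes as tubulin, together with its putative MAP clone, among 258 annotated clones matched to a spot and 2910 spots on the array. They comprised 2 α-tubulin clones, 6 β-tubulin clones and 1 MAP clone. Because 4 of the β-tubulin clones belong to a single contig of expressed sequence tags (EST), contig 7P, the 8 tubulin clones represent 5 contigs or singletons.

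The clones entered the study's annotation because it had listed them as differing between compression and opposite xylem on these same slides. They were thus selected on the measured Cx/Ox ratio itself, at the study's limits of fold change and adjusted p. Their ratios between the xylem types are therefore given as a description, with no test, and neither their number nor their shared direction is independent evidence. Clones were joined to spots through the log2 fold change printed in the study's supplementary tables, which served only as a key.

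Compression xylem (Cx) and opposite xylem (Ox) were developing secondary xylem of 4 field-grown maritime pines (*Pinus pinaster*), labelled as 25, 35, 28 and 28 years old. Every stem had been bent by 45 degrees for 2 months, so that the bending is shared by Cx, taken from the lower side, and Ox, taken from the upper side of the same trunk. No upright stem enters the comparison. On each of 4 slides, labelled RNA of both xylem types competed for the same spots, in different dyes. Cx was in Cy3 on hybridizations 1 and 2, and Ox was in Cy3 on hybridizations 3 and 4. Each value below is log2(Cx/Ox), so that a positive value means a higher signal in Cx. The study's own tables give the reciprocal, Ox over Cx. Ratios do not give the level of a transcript, so the identity of the tissue was not checked against markers, and no member can be ranked against another by abundance. In scraped bulk tissue, a larger share of cells that express a gene and more RNA per cell cannot be told apart.

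A stretch of sequence from each of 3 clones is shown because it tells what the α-tubulin, β-tubulin and MAP probes carry. They come from the study's table of ESTs, of which at most 399 bases per clone were used, and no genome position is given because no genome was used. The α-tubulin and β-tubulin stretches are 150 coding bases that begin at the start codon, which is in capitals. The MAP stretch is the first 150 bases of a 396-base frame without a stop codon, and no start codon was assigned in it.
GEM-006-E09, α-tubulin: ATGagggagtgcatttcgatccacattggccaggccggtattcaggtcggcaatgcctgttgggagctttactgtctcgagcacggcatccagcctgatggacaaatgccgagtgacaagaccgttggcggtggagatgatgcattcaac
GEM-098-B07, β-tubulin of contig 7P: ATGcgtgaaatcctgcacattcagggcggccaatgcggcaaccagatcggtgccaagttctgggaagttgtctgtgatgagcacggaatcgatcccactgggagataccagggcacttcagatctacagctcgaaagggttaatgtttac
GEM-082-H05, MAP: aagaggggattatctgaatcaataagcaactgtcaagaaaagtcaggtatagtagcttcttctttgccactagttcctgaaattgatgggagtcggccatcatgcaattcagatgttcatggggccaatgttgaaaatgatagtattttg

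The longest stretch that the α-tubulin EST GEM-006-E09 shared with contig 7P spanned 33 bases, of which 29 were identical and 4 differed. It begins at base 183 from the start codon in α-tubulin and at base 177 in β-tubulin, and the differing bases are in capitals.
GEM-006-E09, α-tubulin, shared stretch: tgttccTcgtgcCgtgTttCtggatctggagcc
GEM-098-B07, β-tubulin, shared stretch: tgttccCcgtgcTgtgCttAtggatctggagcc

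The 4 ESTs of contig 7P had no mismatch and no gap wherever they overlapped, over 210 to 364 bases. These 4 clones thus sample the same transcript as far as the bases used here show, and they are not counted here as 4 tubulin genes. Bases beyond those used were not compared. Their reads start at different places: GEM-098-B07 began 130 bases before the start codon, GEM-034-F05 95 bases and GEM-070-D08 60 bases before it, whereas GEM-036-E07 began at base 60 of the coding sequence. Apart from pairs within contig 7P, the best local alignment between ESTs of the set covered at most 70 bases. That longest one joined GEM-026-B08 to the reverse strand of GEM-082-H05, with 18 mismatches and 10 gap bases. Its alignment score was 14, below the 25 of the 33-base stretch. The α-tubulin clone GEM-095-G05 and the β-tubulin clones GEM-004-A04 and GEM-026-B08 had been named through a longer tentative contig and not from their own read. Their reads were poor in G and C, at 31.4%, 34.1% and 37.3%, against 41.9% to 54.1% in the 6 clones named from their own read. The read of GEM-095-G05 ended in 18 A. Whether transcripts of one tubulin gene bound to the probe of another was not tested.

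**Figure D1:**
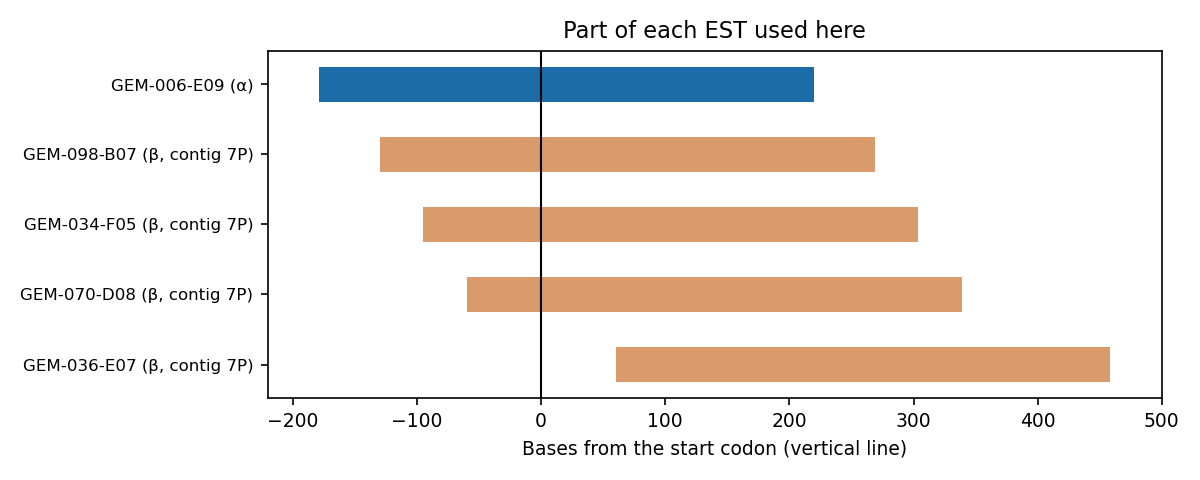
Part of each EST used here, in bases from the start codon (vertical line), for the α-tubulin clone GEM-006-E09 and the 4 β-tubulin clones of contig 7P. The α-tubulin read starts 179 bases before its start codon, and the reads of contig 7P start between 130 bases before the start codon and base 60 after it.

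All 9 clones had a higher signal in Cx on each of the 4 hybridizations, a pattern that 22.7% of the 2910 spots also showed. The mean was at least 1.5-fold higher in Cx for all 9 clones, against 9.86% of all spots, and at least 2-fold higher for 5 of them, against 3.81% of all spots. On every single hybridization, 8 of the 9 were at least 1.5-fold higher in Cx, against 5.74% of spots, the exception being GEM-004-A04. Since the clones were listed for this difference, nothing is read from these counts. Over the 9 clones the median of the mean log2(Cx/Ox) was 1.12, against -0.006 over all spots.

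Of the α-tubulin clones, GEM-095-G05 had the larger mean. Its log2(Cx/Ox) was 1.76 and 1.29 with Cx in Cy3 and 1.40 and 1.20 with Ox in Cy3, a mean of 1.41 ± 0.24 (SD, n = 4 hybridizations) or 2.66-fold. Hybridization 1 was the highest and hybridization 4 the lowest, and the values of both dye orientations overlapped. GEM-006-E09 gave 1.03 and 0.86 with Cx in Cy3 and 0.82 and 1.76 with Ox in Cy3, a mean of 1.12 ± 0.44 or 2.17-fold. Here hybridization 4 stood well above the remaining slides, which lay close together. GEM-095-G05 exceeded GEM-006-E09 by 0.72, 0.43 and 0.59 on hybridizations 1 to 3, and lay below it by 0.56 on hybridization 4, so the order of these α-tubulin probes turned on that slide.

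The β-tubulin clones of contig 7P fell into a matching pair and a further 2 clones that departed from it. GEM-036-E07 had log2(Cx/Ox) of 1.37, 1.10, 1.31 and 1.52 on hybridizations 1 to 4, with a mean of 1.33 ± 0.17 (2.51-fold). GEM-070-D08 had 1.39, 1.04, 1.30 and 1.57, with a mean of 1.33 ± 0.22 (2.51-fold). These probes, printed at different places on the slide, never differed by more than 0.06 on a hybridization. GEM-034-F05 had 0.88, 0.96, 1.17 and 1.76, with a mean of 1.19 ± 0.40 (2.29-fold). GEM-098-B07 had 1.08, 0.96, 0.91 and 0.90, with a mean of 0.97 ± 0.08 (1.95-fold) and the smallest SD of the 9 clones. GEM-034-F05 thus varied most between slides and GEM-098-B07 least, although their overlapping ESTs were identical, and on hybridization 4 they differed by 0.86. Averaged over its 4 clones, contig 7P had a log2(Cx/Ox) of 1.18, 1.02, 1.17 and 1.44, with a mean of 1.20 ± 0.17 (2.30-fold).

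Ordered by where their reads begin, the clone that starts within the coding sequence, GEM-036-E07, and the clone with the shortest stretch before the start codon, GEM-070-D08, had the highest means in contig 7P. GEM-034-F05 and then GEM-098-B07, with progressively longer stretches before the start codon, were lower. This order was noticed after the values were seen and rests on 4 clones. It appeared among the single hybridizations on hybridization 3, while GEM-034-F05 was the lowest of the 4 clones on hybridizations 1 and 2 and the highest on hybridization 4.

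**Figure D2:**
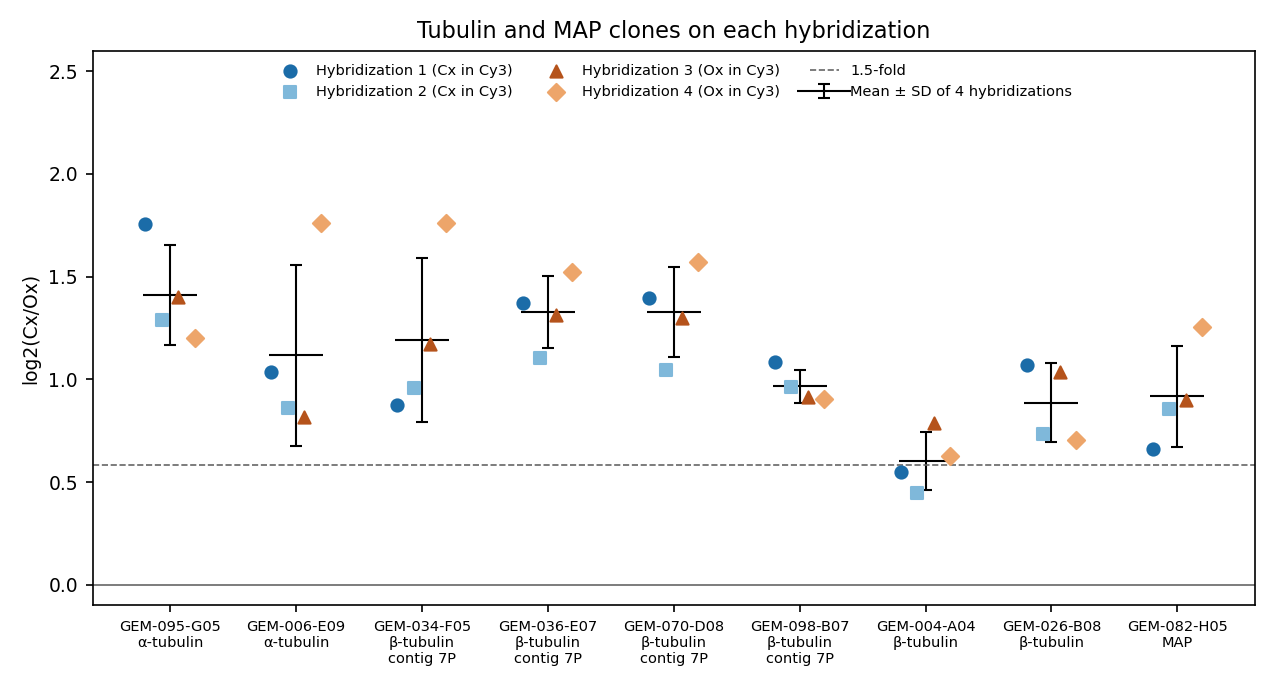
The log2(Cx/Ox) of the 9 clones on each of the 4 hybridizations (points), with the mean ± SD (bars, n = 4) and the 1.5-fold limit (dashed line). Every point lies above 0, and GEM-004-A04 is the only clone with points below the 1.5-fold line.

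The other β-tubulin clones had smaller ratios. GEM-026-B08 had log2(Cx/Ox) of 1.07, 0.74, 1.04 and 0.71 on hybridizations 1 to 4, with a mean of 0.89 ± 0.19 (1.85-fold). GEM-004-A04, annotated as a β-4 chain, had 0.55, 0.45, 0.79 and 0.63, with a mean of 0.60 ± 0.14 (1.52-fold). It was past 1.5-fold on hybridizations 3 and 4 and short of it on hybridizations 1 and 2. Its mean was the one nearest the limit of 1.5-fold, which is 0.58 on the log2 scale. On either side of that limit, the closest spots of the array had means of 0.588 (GEM-086-H08) and 0.584 (GEM-071-A07). Set side by side, contig 7P exceeded the mean of GEM-026-B08 and GEM-004-A04 by 0.37, 0.43, 0.26 and 0.77 on the 4 hybridizations. The mean of both α-tubulin clones exceeded the mean of the 3 β-tubulin contigs or singletons by 0.46, 0.34, 0.11 and 0.56. Both differences were positive on 4 of 4 hybridizations, but they compare ratios of different probes and were not tested. Contig 7P alone, at 1.18, 1.02, 1.17 and 1.44, was above the α-tubulin mean of 1.40, 1.07, 1.11 and 1.48 on hybridization 3 and below it on the others.

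The MAP clone GEM-082-H05, whose protein is annotated only by similarity, had log2(Cx/Ox) of 0.66, 0.86, 0.90 and 1.25 on hybridizations 1 to 4. Its mean was 0.92 ± 0.25 (1.89-fold), with hybridization 1 the lowest and hybridization 4 the highest. The profile of the tubulins, taken as the mean of the 5 contigs or singletons with contig 7P counted once, was 1.12, 0.87, 1.04 and 1.15. Its mean was 1.04 ± 0.12 (2.06-fold). MAP minus tubulin was -0.46, -0.01, -0.14 and 0.11, a mean difference of -0.13 ± 0.24 that is smaller than its own spread.

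The slides did not order the clones alike. Hybridization 4 gave the highest value in 5 of the 9 clones (55.6%), hybridization 1 in 3 and hybridization 3 in 1, and hybridization 2 in none. Over all 2910 spots, hybridization 4 was the highest in 28.2%, and over the 287 spots with a mean at least 1.5-fold higher in Cx it was the highest in 18.5%. The 5 clones that peaked on hybridization 4 were GEM-006-E09, GEM-034-F05, GEM-036-E07, GEM-070-D08 and GEM-082-H05. All 5 are among the 6 clones named from their own read. The sixth, GEM-098-B07, peaked on hybridization 1 and was lowest on hybridization 4. GEM-034-F05, GEM-036-E07 and GEM-070-D08 are clones of contig 7P, so the 55.6% counts that contig more than once. The 3 clones with G- and C-poor reads peaked on hybridization 1 (GEM-095-G05 and GEM-026-B08) or 3 (GEM-004-A04). This division was seen after the values were known, and it was not tested.

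**Figure D3:**
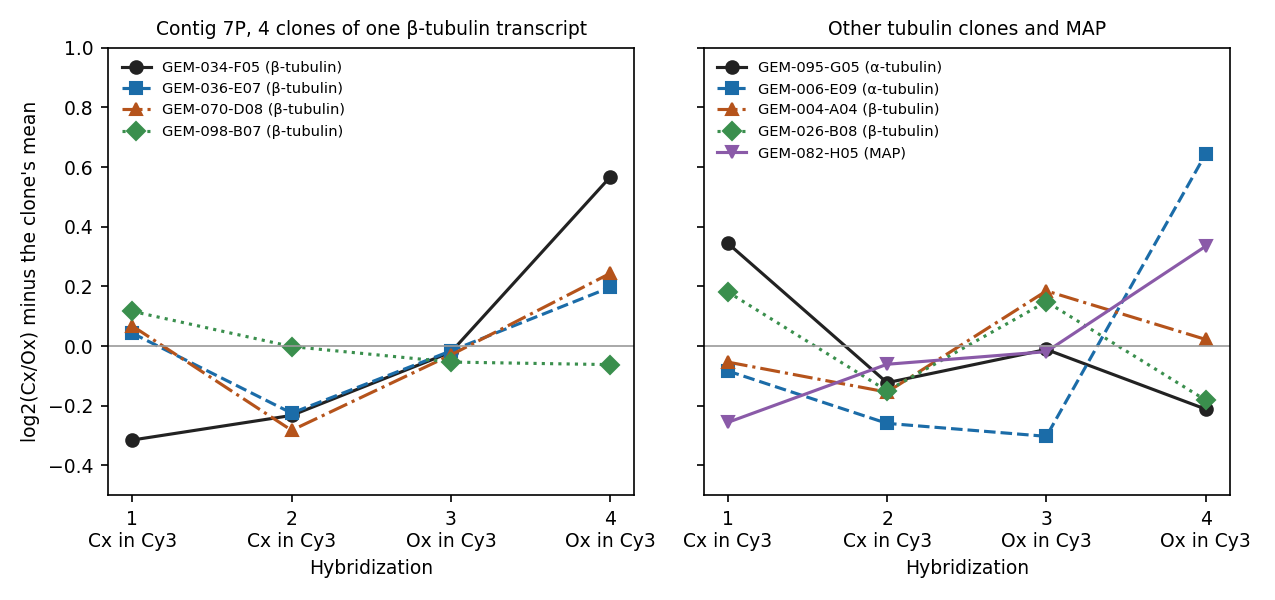
Deviation of each clone's log2(Cx/Ox) from its own mean on the 4 hybridizations, for the 4 clones of contig 7P (left) and the other 5 clones (right), with lines that join the points of a clone and stand for no order. GEM-036-E07 and GEM-070-D08 run together, GEM-034-F05 and GEM-006-E09 peak on hybridization 4, and GEM-098-B07 stays closest to its mean.

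The SD over the 4 hybridizations lay between 0.08 and 0.44 for the 9 clones, with a median of 0.22. The median SD was 0.20 over all spots and 0.26 over the spots at least 1.5-fold higher in Cx. The 9 clones had also passed the study's limit on adjusted p, which favours a small SD, so these medians are not compared. The copies of a clone printed on the same slide differed by a median of 0.07 and by at most 0.25 in any of the 9 clones. Among the 9 contigs that hold 2 or more annotated clones of the array, contig 7P was the only one with 4 clones. Its clone means spanned 0.36, the sixth smallest of those ranges. The smallest was 0.009, for cinnamyl-alcohol dehydrogenase of the monolignol pathway, and the largest was 1.56, for a glycosyltransferase. On single hybridizations the clones of contig 7P spanned 0.52, 0.14, 0.40 and 0.86.

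**Figure D4:**
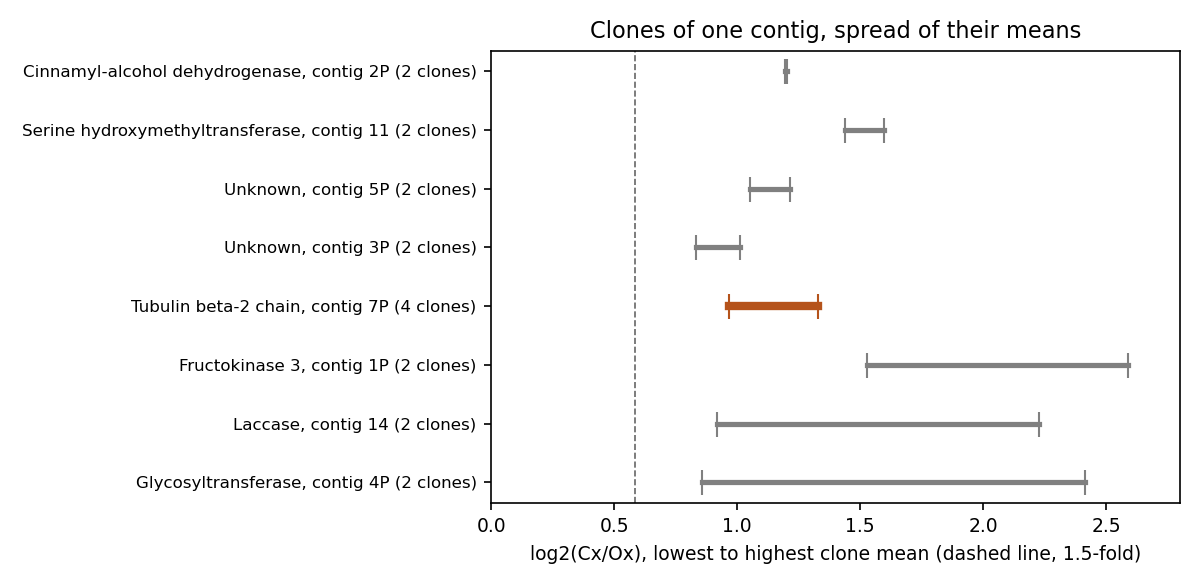
Lowest to highest clone mean of log2(Cx/Ox) in each of the 8 contigs of the Cx list with 2 or more annotated clones, with the 1.5-fold limit as a dashed line. Contig 7P (β-tubulin, 4 clones) spans 0.97 to 1.33, between the narrow contigs above it and the contigs with a range over 1 below it.

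The dye effect is meant as the part of a ratio that follows the colour of a target and not its tissue. It was fitted in limma over all 2910 spots beside the tissue effect. The term contrasts hybridizations 3 and 4 with hybridizations 1 and 2. The methods describe targets from different trees, while the labels number the same 4 trees in both orientations. Which tree each slide carried cannot be told, so dye cannot be told apart from tree or slide differences. The dye effect was not itself a listing criterion. The study's limit on adjusted p favours a small spread between slides, so small dye effects in the clones are not independent of the listing. At an adjusted p of 0.05, limma called 0 of the 9 clones, and 0 of the 2910 spots (0.0%). At an unadjusted p of 0.05, 0 of the 9 clones and 1091 spots (37.5%) were below the threshold. The median size of the dye effect was 0.11 in log2(Cy5/Cy3) over the 9 clones and 0.12 over all spots. The largest in the set was that of the β-tubulin clone GEM-034-F05, 0.27 with a 95% interval of -0.01 to 0.56 (limma, adjusted p = 0.143). Those of the α-tubulin clones were -0.11 for GEM-095-G05 (interval -0.36 to 0.14, limma adjusted p = 0.435) and 0.17 for GEM-006-E09 (interval -0.26 to 0.61, limma adjusted p = 0.489). The MAP clone had 0.16 (interval -0.05 to 0.37, limma adjusted p = 0.217). Each of these 4 intervals contained 0. The calls differed between fits. With columns of opposite orientation subtracted within each labelled tree number, 3 of the 9 clones were called (GEM-034-F05, GEM-004-A04 and GEM-082-H05). So were 1535 of the 2910 spots (52.7%). The robust model on the same differences called 3 of the 9 clones and 45.9% of spots. A random block for tree number called 2 of the 9 clones and 53.7% of spots, and a random block for the slide called 1 clone and 30.6% of spots. The tree-number fits count the copies printed on one slide as separate replicates.

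**Figure D5:**
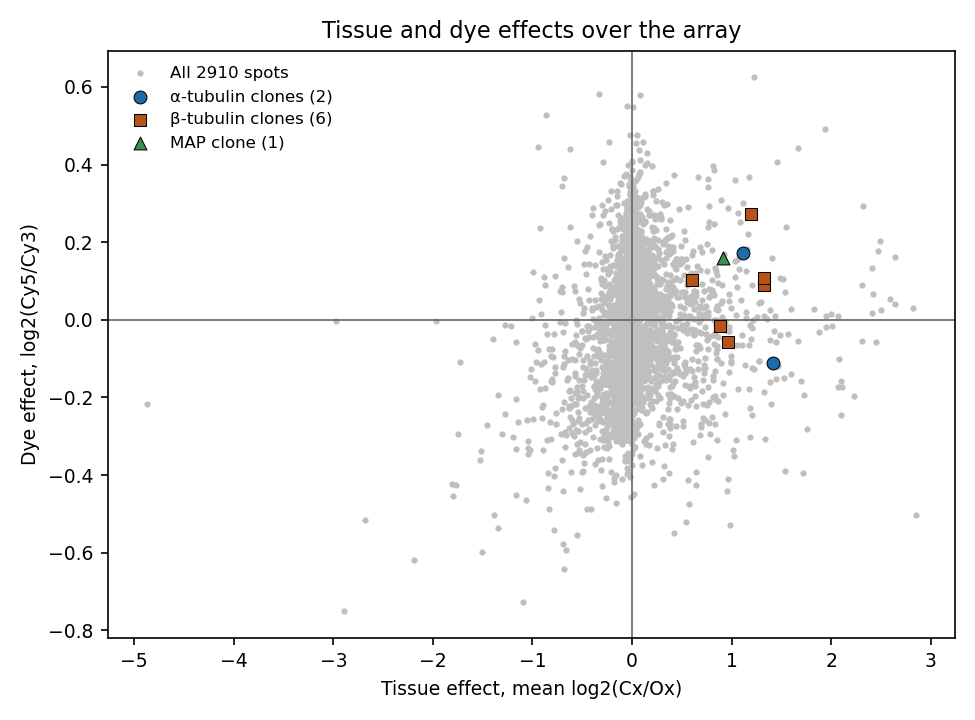
Tissue effect, mean log2(Cx/Ox), against dye effect, log2(Cy5/Cy3), for all 2910 spots (grey) and the 9 clones (coloured by protein). The 9 clones lie at tissue effects from 0.60 to 1.41 and at dye effects from -0.11 to 0.27.

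In the study's cytoskeleton category, 2 further clones of microarray 1 were listed, both for proteins of the actin system. GEM-037-B08, for the α subunit of the F-actin capping protein, which blocks the fast-growing end of actin filaments, had 1.04, 0.76, 0.75 and 1.07, a mean of 0.91 ± 0.17 (1.87-fold). GEM-005-E10, annotated as subunit 4 of the actin-related protein complex, which nucleates branched actin, had 0.98, 0.57, 0.73 and 0.67, a mean of 0.74 ± 0.18 (1.67-fold). Both were higher in Cx on all hybridizations and lay within the range of the 9 clones.

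Other listed groups of genes with roles near those of microtubules were set beside the 9 clones. The study listed them on the same contrast too, so their direction is no evidence. The 13 clones of microarray 1 in the study's cell wall category, among them laccases and glycosyltransferases, were all higher in Cx on every hybridization. Their median mean was 0.92. The study also counts genes up-regulated in Ox in that category, and none of them is among these 13 clones. The 3 clones for cellulose synthase, which makes the microfibrils, and sucrose synthase, which can supply its UDP-glucose, had a median mean of 0.84, all higher in Cx. Those for cellulose synthase are also among the 13. The 5 clones for vesicle coats and small GTPases of the secretory pathway had a median mean of 0.77, all higher in Cx. Of 3 cell division clones, 2 for cyclin-dependent kinases were higher in Cx and the histone H2A clone GEM-056-G05 was lower, at -1.45.

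Among the 249 other annotated clones, likeness to the tubulin profile was measured as the root mean square of the differences over the 4 hybridizations. The 5 nearest were GEM-047-F06, for a putative U3 small nucleolar ribonucleoprotein (0.08), GEM-112-F07, for a hypothetical protein (0.10), GEM-023-H07, for a fructose-bisphosphate aldolase-like protein (0.11), GEM-079-G02, for a putative DNA photolyase (0.12), and GEM-007-D05, for a putative serine/threonine-protein kinase (0.14). The 9 clones themselves lay at 0.15 to 0.46 from the profile. Single tubulin probes were therefore farther from their own mean than these 5 clones of other annotation, which were picked as the closest of 249 over only 4 hybridizations.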

How the data were processed

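The deposited table holds 8 columns of log2 ratios for 2910 spots, which the authors made, per their methods, from GenePix intensities by normexp background correction and print-tip loess, with no scaling between arrays. The submitters' processing notes name R 2.7.1 and limma 2.14.5. The filters on flags and signal in the methods were not applied here. Intensities were not used, and precision is limited by the number of arrays. No value was missing and 0 columns were left unused. In the table the 8 columns formed 4 near-identical pairs (r = 0.969 to 0.984, against 0.843 to 0.875 between slides of the same dye orientation and 0.635 to 0.791 between orientations), which matches the methods' 2 copies of the array on each slide. The copies were averaged and n is 4 hybridizations. The methods describe targets from different trees, but which tree each hybridization used cannot be told, so SD and p-values measure the spread between slides.

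The sign of the columns with Cx in Cy3 was turned, so that all values are log2(Cx/Ox). The methods' wording on Cy3 and Cy5 would give the opposite sign. The direction was instead taken from the study's fold-change table, of which 1999 rows for 1995 clones were used. Expressed as Ox over Cx, the means were matched to its values to 6 significant digits, and 1988 of these clones matched exactly 1 spot. Those tables were used in shortened form, with no set test. In all, 258 annotated clones matched exactly 1 spot each, and 845 spots carry no name. The match with these tables does not check the direction independently of the study.

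The text names all 9 clones, the 2 other cytoskeleton clones and the 5 clones nearest the tubulin profile, by rule, and gives other lists by count and median. Clones and examples outside that rule (GEM-056-G05 and the spots at the limit) were chosen after their values were seen. The members and lists were chosen with earlier results of these data known. Means are plain means with SD. The dye term was tested by least squares in limma 3.58.1 (R 4.3.3, statmod 1.5.0) with empirical Bayes moderation and Benjamini-Hochberg adjustment over 2910 spots, and the fit was tested on simulated data. Local alignments and open frames were computed with Biopython 1.88 and Python 3.11.15 (numpy 2.4.6, pandas 2.3.3, matplotlib 3.10.9). Alternatives were centring, scaling, a robust model, tree-number averages (for the dye term, differences within a tree number), random blocks, single dye orientations, a 2-fold limit and leaving out each hybridization. Same-numbered columns of opposite orientation did not deviate together (r = 0.004, -0.03, -0.02 and -0.01 for tree numbers 1 to 4). The main fit has no pairing by tree number. Each orientation holds only 2 slides and was centred on its own mean, so these r values are not 4 independent checks.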

Additional observations from a re-analysis of the deposited data

How the results depend on the processing

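Under 10 alternative settings the 9 clones gave 90 means, all positive and between 0.50 and 1.52. Of these, 4 were below 1.5-fold, all of them of the β-tubulin clone GEM-004-A04: 0.58 with columns centred, 0.58 with columns centred and scaled, 0.50 with only the hybridizations that had Cx in Cy3, and 0.54 without hybridization 3. Leaving out each hybridization moved the median over the 9 clones (1.12) between 0.99 and 1.20, with the lowest value without hybridization 4. That median was 0.95 with only Cx in Cy3 and 1.29 with only Ox in Cy3. At 2-fold, 5 of the 9 clones, 111 spots higher in Cx and 39 spots lower in Cx were past the limit. At 1.5-fold, the 287 spots higher in Cx became 280 to 307 and the 130 spots lower in Cx became 111 to 160 when a hybridization was left out, and 211 spots were lower in Cx with only Ox in Cy3. With only Ox in Cy3, 57.5% of the spots past 1.5-fold were on the Cx side, against 75.2% with only Cx in Cy3 and 68.8% with all slides. The cause of these shifts was not tested.

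The calls of the dye term differed with how columns, copies and slides entered the fit. With the replicate block by tree number, differences between opposite orientations within a tree number called 1535 spots and 3 of the 9 clones by least squares. The robust model called 1337 spots and 3 clones. With a random block for tree number (consensus correlation -0.13), 1564 spots and 2 clones were called, and with one for hybridization (0.81), 891 spots and 1 clone. GEM-034-F05 was called in these 4 fits (limma, adjusted p = 0.0144, 0.0443, 0.0229 and 0.0477 in that order), at the same dye effect of 0.27. Same-numbered columns did not deviate together, and the tree-number fits spread copies of the same slide over different replicates. Leaving out a hybridization called 0 spots and 0 clones. The replicate block changed no count of clones past 1.5-fold. The sign of the dye effect turned in GEM-095-G05 without hybridization 1 (0.00567, over a range from -0.23), in GEM-006-E09 without hybridization 4 (-0.0657, range to 0.41), in GEM-026-B08 without hybridization 1 and without hybridization 4 (0.0668 and 0.0665, range from -0.10), and in GEM-036-E07 (-0.0711) and GEM-070-D08 (-0.0578) with columns centred and scaled. With 4 hybridizations and no intensities, dim or saturated spots cannot be singled out.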
